A study of Mus musculus with 12 samples.

Results

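Fibroblast growth factor (FGF) transcripts were followed in mouse R1 embryonic stem cells, a line established from a blastocyst. The 10 genes comprised 6 ligands (Fgf3, Fgf4, Fgf5, Fgf8, Fgf15 and Fgf17) and 4 receptors (Fgfr1 to Fgfr4), and they were represented by every probe set whose only gene symbol was one of these names. That gave 10 of 18194 genes with a single symbol and 26 of 45265 probe sets, 22 on Affymetrix array MOE430A (array A) and 4 on MOE430B (array B). The study compared 3 RNAs labelled as differentiated into embryoid bodies (D1 to D3) with 3 labelled undifferentiated (U1 to U3), each hybridised once to each array type. Embryoid bodies are clumps of stem cells grown in suspension, where several lineages start to form. The labels describe growth alike for both groups, in serum-containing D-MEM on bacterial Petri dishes for 5 days, so the difference in culture rests on the group names. They name no transgene, no added factor and no separate cultures, and only the undifferentiated RNAs carry an estimated purity (95%, judged by eye). The p-values therefore rest on how far the RNAs of a group differ, and that spread may be technical.

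FGF ligands are secreted proteins that bind receptor tyrosine kinases together with heparan sulfate, and the activated receptors signal through docking proteins to the RAS-ERK cascade. In the early mouse embryo and in stem cell cultures, Fgf4 is the ligand best known for pushing cells out of the naive pluripotent state and for specifying primitive endoderm, and Fgfr1 and Fgfr2 are the receptors known to receive it. Fgf5 marks the epiblast after implantation, and Fgf8, Fgf17 and Fgf3 are known from the primitive streak and later signalling centres.

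Values are MAS5 signals scaled to a trimmed mean of 500 on each array, with 32 as the lowest value used on the log2 scale. Signals of different probe sets were not set against each other, and only the marker sums below add them. The stem cell factors Pou5f1, Nanog and Sox2 were measured in all 6 RNAs, between 3235 and 4670 for Pou5f1, between 917 and 2708 for Nanog and between 1853 and 2764 for Sox2. All differentiated Pou5f1 values lay below all undifferentiated ones, by a log2 difference of -0.27 (limma adjusted p = 0.352). D1 gave the lowest Pou5f1 and Nanog signals and, on array A, the lowest median correlation with the other arrays (r = 0.881, against 0.912 to 0.922). Its 3' to 5' actin ratio, a sign of RNA integrity, was the highest on array A (log2 0.70, against 0.13 to 0.31). U2 had the lowest correlation on array B (median r = 0.697, against 0.810 to 0.852). On array A, lot 1 held D1 to D3 and U1, lot 2 held U2 and U3, and the differentiated arrays all ran on fluidics station 2 and the undifferentiated ones on station 1, so fluidics station and sample group cannot be told apart on it. Array B came from 1 lot, and there U1 shared station 2 with the differentiated RNAs.

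Of the 10 FGF genes, 1 passed the test between the groups: Fgf17 was 3.04-fold lower in the differentiated RNAs, on 1 of its 2 probe sets. No member rose, and the other 9 genes did not pass. Of 16461 genes tested, 2.5% had any probe set that passed. A probe set was tested where its mean log2 signal over the 6 arrays was at least 6, which held for 23 of the 26, and it passed where the adjusted p was under 0.05 (limma, Benjamini-Hochberg over all probe sets of that array). On array A, 1 of 19 tested member probe sets passed, against 2.87% of the 18025 probe sets tested there and 1.56% that passed as lower and 1.31% as higher. On array B 0 of 4 passed, against 0.0197% of 20344. Of the member probe sets tested, 6 of 19 on array A and 1 of 4 on array B had groups whose values did not overlap, against 21.1% and 11.3% of all. Of the 6, 4 had all differentiated values lower (10.1% of all) and 2 had them higher (11% of all), and the 1 on array B was lower (5.32% of all, with 5.96% higher). At an unadjusted p under 0.05 stood 5 of the 23, where 15.8% of array A and 5.24% of array B probe sets did. The median log2 difference of the 23 was -0.35, beside 0.02 for all tested probe sets of array A and 0.03 for those of array B. Of the 23, 17 lay below 0 and 6 above.

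Fgf17 encodes a ligand closely related to Fgf8. Its probe set 1421523_at read 257, 277 and 191 in D1, D2 and D3 and 603, 799.5 and 786 in U1, U2 and U3. Every differentiated value lay below every undifferentiated one, and no array was at the floor. The differentiated RNAs had a log2 signal of 7.90 ± 0.28 and the undifferentiated RNAs one of 9.50 ± 0.23 (each SD, n = 3), a difference of -1.60 ± 0.26 (SE, limma adjusted p = 0.00761). Within lot 1 the log2 differences of D1, D2 and D3 from U1 were -1.23, -1.13 and -1.66. In bulk RNA, fewer cells of a type and less RNA per cell cannot be told apart. Since lot 2 on array A and station 1 on array B held no differentiated RNA, a block on lot or station compares the 3 differentiated RNAs with U1 alone, and its error assumes that U1 varies like the others. With the lot as a block the Fgf17 difference was -1.34 ± 0.36 (SE) and did not pass (limma adjusted p = 0.195). The call was also lost without U2 (-1.53, limma adjusted p = 0.0636) and without U3 (-1.54, limma adjusted p = 0.0616).

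The other Fgf17 probe set, 1456239_at, did not separate the groups. It read 180, 55.4 and 57.1 in D1 to D3 against 147, 127 and 101 in U1 to U3. D2 and D3 lay below all undifferentiated RNAs and D1 above them, and the difference was -0.58 ± 0.62 (SE, limma adjusted p = 0.735). Without D1 it was -1.14 (limma adjusted p = 0.392).

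The upstream sequences of the ligands Fgf3, Fgf4 and Fgf5 are given because the array A differences of these genes lay on opposite sides of 0 and those of Fgf3 and Fgf4 come from neighbouring genes. None of these differences passed in the main fit, so the sequences are not an account of them. RefSeq windows were at hand for 6 of the 10 members. The 250 bases before the annotated start are written 5' to 3' on the gene's strand (RefSeq, GRCm38.p6), and capitals mark matches, on either strand, to 4 short promoter motifs. The GC box was searched as the letters GGGCGG. The second motif was spelled TATAAA, and the third was CCAAT, known to bind the factor NF-Y. The octamer bound by POU factors such as Oct4 was searched as ATGCAAAT. No marked matches overlap.
Fgf3, chr7:144838362-144838611, strand +: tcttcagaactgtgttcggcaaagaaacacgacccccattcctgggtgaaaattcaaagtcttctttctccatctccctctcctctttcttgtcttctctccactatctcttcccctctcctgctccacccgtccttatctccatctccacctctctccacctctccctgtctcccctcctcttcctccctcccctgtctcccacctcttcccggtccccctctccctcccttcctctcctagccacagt
Fgf4, chr7:144861136-144861385, strand +: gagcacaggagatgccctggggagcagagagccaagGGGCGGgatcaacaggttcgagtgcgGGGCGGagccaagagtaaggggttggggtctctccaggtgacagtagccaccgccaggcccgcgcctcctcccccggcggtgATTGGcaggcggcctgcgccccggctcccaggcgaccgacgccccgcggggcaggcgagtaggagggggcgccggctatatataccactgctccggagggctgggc
Fgf5, chr5:98253934-98254183, strand +: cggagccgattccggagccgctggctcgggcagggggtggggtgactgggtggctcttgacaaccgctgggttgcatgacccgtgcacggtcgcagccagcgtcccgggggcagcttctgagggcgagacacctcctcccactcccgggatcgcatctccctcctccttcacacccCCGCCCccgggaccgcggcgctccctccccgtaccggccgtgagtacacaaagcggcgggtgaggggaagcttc
The Fgf4 window held 2 GC boxes, 214 and 188 bases before the start, and 1 CCAAT motif on the other strand, 106 bases before it. The Fgf5 window held 1 GC box on the other strand, 74 bases before the start, and the Fgf3 window none of the 4 motifs. Of 32851 windows of this length, 32.7% held the GC box, 33.8% the CCAAT motif, 12.4% the TATA motif and 1.6% the octamer. The base composition also differed, with 55.2% G or C for Fgf3 against 71.2% for Fgf4 and 70.8% for Fgf5. Only exact matches were counted, so variants of a motif, also of the TATA motif, were not marked. These matches describe the letters only.

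Fgf4, the main FGF ligand of stem cells, had 4 probe sets on array A, of which 3 were tested and none passed. Probe set 1420085_at read 50.2, 715 and 692 in D1 to D3 and 891, 1162 and 1390 in U1 to U3. The groups did not overlap, but D2 was 14.2 times D1, and the difference of -1.95 ± 0.80 (SE, limma adjusted p = 0.264) became -0.68 ± 0.21 (SE, limma adjusted p = 0.134) without D1. Probe set 1420086_x_at, annotated to the same sequence record, is of a kind that can bind related transcripts. It had the same low D1, at 75.9, 601 and 625 against 498, 935 and 975. There the groups overlapped, D1 again stood far below D2 and D3, and the difference went from -1.33 to -0.33 without D1. The third, 1450282_at, annotated to a RefSeq transcript, read 466, 365 and 729 against 524, 749 and 958.

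On 1450282_at D1 lay between D2 and D3. The low Fgf4 value of D1 was thus seen on 2 of the 3 tested probe sets, which share a sequence record and are not separate evidence. The difference on 1450282_at was -0.53 ± 0.30 (SE, limma adjusted p = 0.442). Within lot 1 its log2 differences of D1, D2 and D3 from U1 were -0.17, -0.52 and 0.48. The untested probe set 1449729_at was at the floor on all 3 differentiated and 2 undifferentiated arrays. The 95% interval of the difference ran on 1420085_at from -3.73 to -0.18, and on 1450282_at from -1.19 to 0.13.

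Fgf15, the mouse counterpart of human FGF19, showed the same low value in D1. Its single probe set 1418376_at read 45.7, 322 and 214 in D1 to D3 and 298, 414 and 362 in U1 to U3. D2 lay within the range of the undifferentiated RNAs and D3 below it. The difference was -1.28 ± 0.62 (SE, limma adjusted p = 0.356), and without D1 it was -0.44 ± 0.31 (SE, limma adjusted p = 0.55). The part of the RNA integrity of D1 in these values was not tested.

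Fgf3, Fgf4 and Fgf15 are consecutive protein-coding genes on chromosome 7 in the RefSeq annotation of GRCm38.p6, and their probe sets did not share a direction. None of the probe sets tested passed, so the directions of these genes are not settled. Fgf3 lay on the other side of 0 from Fgf4 and Fgf15 on array A. Probe set 1441350_at read 174, 208 and 201 in D1 to D3 against 43.9, 127 and 103 in U1 to U3, and all differentiated values were above all undifferentiated ones. The difference was 1.22 ± 0.53 (SE, limma adjusted p = 0.291), with U1 the lowest RNA, and it was 0.76 without U1 (limma adjusted p = 0.502) and 2.14 ± 0.66 (SE, limma adjusted p = 0.290) with the lot as a block. The RefSeq-based probe set 1422923_at, too dim to be tested, read 91.9, 61.3 and 128 against 11.7, 43.7 and 37.2, again without overlap. The array B probe set 1441914_x_at, of a kind that can bind related transcripts, had a difference below 0, with 231, 249 and 918 against 332, 1601 and 1151. Its groups overlapped and its difference was -1.18 ± 0.70 (SE, limma adjusted p = 0.841), which turned to 0.18 with the station as a block.

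Fgf5, the marker of the postimplantation epiblast, read higher in the differentiated RNAs on array A, but the difference did not pass. Probe set 1426186_a_at read 440.4, 489 and 604 in D1 to D3 and 110.1, 382 and 327 in U1 to U3. The groups did not overlap, U1 was the lowest RNA, and the difference was 1.08 ± 0.43 (SE, limma adjusted p = 0.247). Against U1, which shares their lot, D1, D2 and D3 were higher by 2.00, 2.15 and 2.46 log2 units, and with the lot as a block, which is their mean against that 1 RNA, the difference was 2.20 ± 0.38 (SE, limma adjusted p = 0.0453). Without U1 it was 0.52 ± 0.27 (SE, limma adjusted p = 0.406), so U1 decided the size. The array B probe set 1438883_at showed no separation, with 1458, 3705 and 1366 against 1529, 3469 and 2087 and a difference of -0.20 ± 0.43 (SE, limma adjusted p = 0.942). D2 and U2 were the highest RNAs on it.

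Fgf8, a ligand of the primitive streak and of brain signalling centres, was nearly equal in the differentiated RNAs. Its probe set 1451882_a_at read 335, 339 and 346 in D1 to D3 against 368, 171 and 223 in U1 to U3. U1 exceeded all differentiated RNAs while U2 and U3 lay below them, and the difference was 0.49 ± 0.34 (SE, limma adjusted p = 0.553). It turned to -0.12 with the lot as a block.

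**Figure D1:**
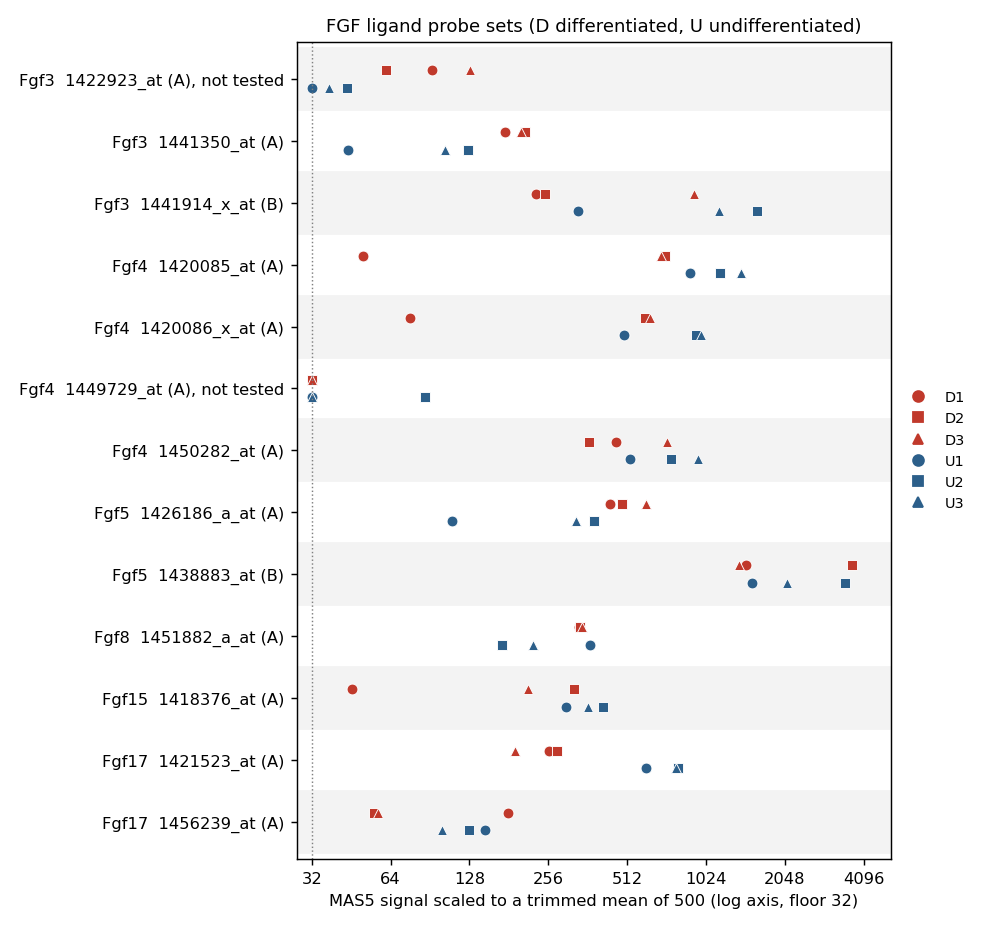
MAS5 signals of the 13 FGF ligand probe sets on a log axis, 1 row per probe set with the array type in parentheses; red symbols are differentiated and blue symbols undifferentiated RNAs, with a circle, square and triangle for replicates 1, 2 and 3, and values under 32 drawn at 32. The Fgf17 probe set 1421523_at has all red symbols (191 to 277) left of all blue ones (603 to 799.5), and D1 stands apart at 50.2 for Fgf4 1420085_at and 45.7 for Fgf15.

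None of the 4 receptors passed the test. Of 12 tested receptor probe sets, 9 lay below 0 and 3 above, and the lowest adjusted p was 0.385. Fgfr1, a receptor expressed widely in pluripotent cells, had all 3 of its probe sets below 0. Probe set 1424050_s_at, of a kind that can match several transcripts, read 445, 484 and 517 in D1 to D3 and 591, 722 and 602 in U1 to U3. The groups did not overlap, but the difference was small, -0.40 ± 0.20 (SE, limma adjusted p = 0.385), a signal 1.32-fold lower. Probe set 1425911_a_at read 443, 741 and 684 against 613, 1014 and 1015, with D1 and U1 the lowest of their groups. Its difference of -0.50 ± 0.27 (SE, limma adjusted p = 0.416) was -0.01 with the lot as a block.

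The array B probe set of Fgfr1, 1436551_at, had the largest difference of the receptor probe sets. It read 406, 115 and 256 in D1 to D3 and 599, 850.3 and 547 in U1 to U3. All differentiated values were lower, by 2.86-fold in the mean, and the difference of -1.51 ± 0.56 (SE) did not pass after adjustment (limma adjusted p = 0.841, unadjusted p = 0.0237). Within station 2, the log2 differences of D1, D2 and D3 from U1 were -0.56, -2.38 and -1.22.

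Fgfr2, the receptor known for its role in primitive endoderm and epithelia, did not separate the groups on a common pattern. Probe set 1433489_s_at, of a kind that can match several transcripts, read 1053, 1082 and 1001 in D1 to D3 and 1113, 1300.2 and 1517 in U1 to U3. The groups did not overlap, with a difference of -0.31 ± 0.16 (SE, limma adjusted p = 0.402), and U1 was the closest to the differentiated RNAs. Probe set 1420847_a_at read 415, 615 and 557 against 402, 831 and 834, so U1 was the lowest of all 6 while U2 and U3 were the highest. Its difference was -0.32 ± 0.30 (SE, limma adjusted p = 0.684) and turned to 0.38 with the lot as a block. On array B, 1443211_at ranged from 92.5 to 481 in differentiated and from 78.7 to 636 in undifferentiated RNAs, with a difference of -0.21 ± 0.94 (SE, limma adjusted p = 0.972).

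Fgfr3, known from cartilage and neural tissue, gave dim signals. Its 1421841_at read 169, 42.4 and 100.5 in D1 to D3 against 78.5, 134 and 141, and its 1425796_a_at ranged from 39.0 to 114.5 in differentiated and from 58.4 to 73.7 in undifferentiated RNAs. The differences were -0.35 ± 0.64 (SE) and 0.10 ± 0.69 (SE, limma adjusted p = 0.86 and 0.968), and their 95% intervals of -1.75 to 1.06 and -1.42 to 1.62 leave changes of either sign possible.

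Fgfr4, known from endoderm and liver, had 5 probe sets on array A, of which 4 were tested. The RefSeq-based 1418596_at read 169, 345 and 211 in D1 to D3 and 313, 281 and 233 in U1 to U3, with a difference of -0.25 ± 0.36 (SE, limma adjusted p = 0.815). D2 was the highest RNA on it and D1 the lowest. The other probe sets disagreed among themselves: 1427777_x_at had a difference of -1.02 ± 0.59 (SE), 1427846_x_at one of 0.00 ± 0.26 (SE) and 1427845_at one of 0.59 ± 1.02 (SE), with limma adjusted p between 0.459 and 0.996. Both 1427777_x_at and 1427846_x_at are of a kind that can bind related transcripts. D1 was the lowest RNA on 1427777_x_at, at 63.3, and the highest on 1427845_at, at 422, and on 1427846_x_at, at 688. The untested 1427776_a_at was at the floor on all 3 undifferentiated arrays and on 1 differentiated array, with D1 at 93.9 and D3 at 79.8.

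**Figure D2:**
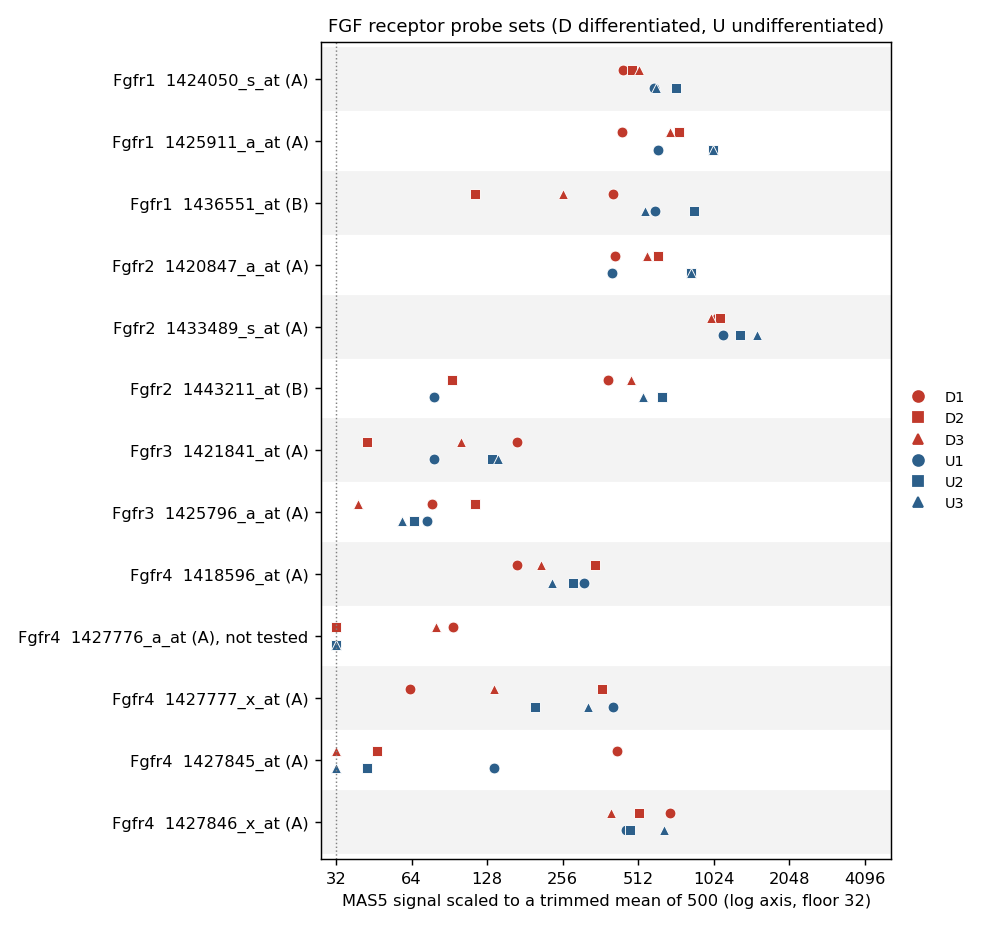
MAS5 signals of the 13 FGF receptor probe sets on a log axis, with symbols and colours as for the ligands. Red and blue symbols do not overlap for Fgfr1 1424050_s_at and 1436551_at and for Fgfr2 1433489_s_at, and they overlap on the other rows.

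On array A the replicate numbered 1 was the lowest of its group for more member probe sets than either other RNA. U1 was the lowest undifferentiated RNA there for 13 of the 19 tested probe sets, where it was the lowest for 34.7% of all tested probe sets, and D1 was the lowest differentiated RNA for 11 of 19, against 34.3%. On array B U1 was the lowest of its group for 3 of 4 tested probe sets and D1 for 1 of 4. U1 and D1 also had the highest 3' to 5' actin ratio of their groups, at log2 0.31 and 0.70 on array A and 0.55 and 0.68 on array B. The 3' to 5' Gapdh ratio of D1 was also the highest of its group on both arrays (log2 0.17 and -0.12). That of U1 was the highest of its group on array B (-0.14) but the lowest on array A (-0.134, against -0.132 and -0.128). The part of these ratios in this pattern was not tested. Probe sets of a gene share their transcript and are not independent. U1 is also the only undifferentiated RNA in the lot of the differentiated ones, so the comparison within lot 1 set the differentiated RNAs against the lowest undifferentiated value for most members. Of the 23 differences, 8 changed sign with the batch as a block, and none of these 8 passed in either fit.

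**Figure D3:**
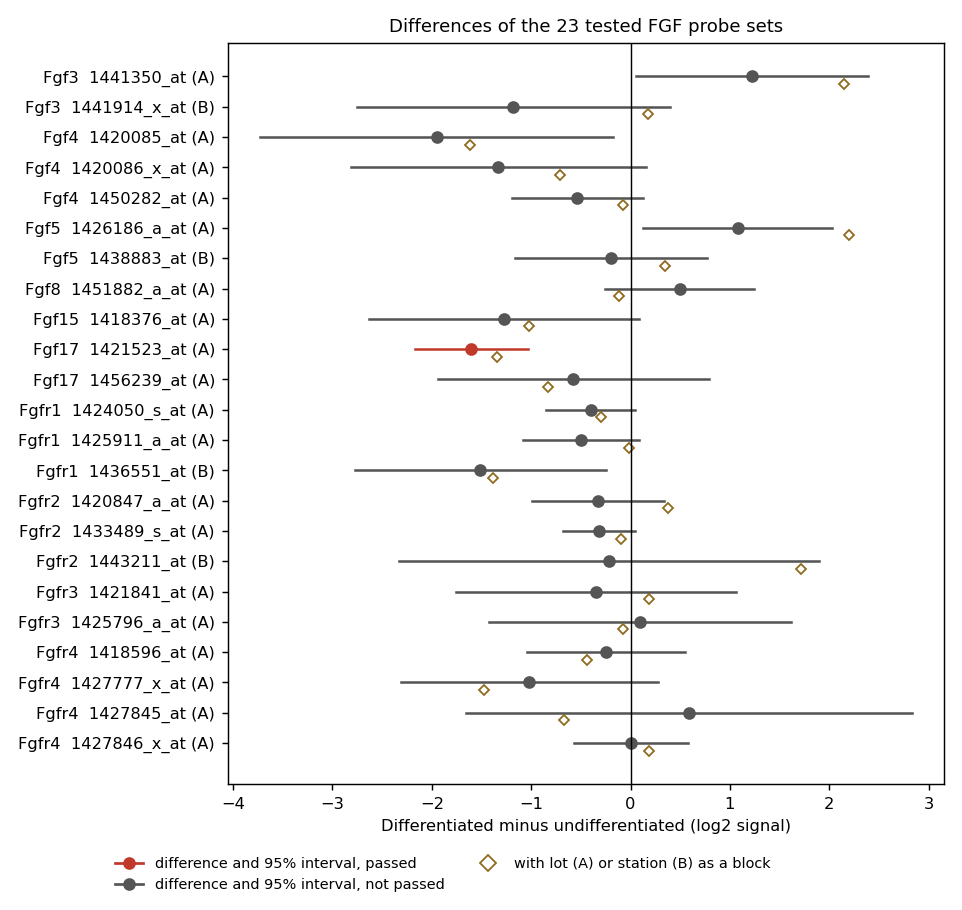
Differentiated minus undifferentiated log2 differences of the 23 tested FGF probe sets (circles) with their 95% intervals, red where the adjusted p was under 0.05, and the same difference with lot (array A) or station (array B) as a block (open diamonds). Fgf17 1421523_at, at -1.60, is the only one in red, and the diamond of Fgf5 1426186_a_at lies at 2.20, to the right of its circle at 1.08.

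Around the ligands and receptors, 4 of 87 tested pathway genes passed, 1 higher and 3 lower, against 2.08% of 16461 genes (0.923% higher and 1.16% lower). Each gene was taken by its brightest tested probe set on array A or, where it had none there, on array B. The median log2 difference of the 87 was -0.12, beside 0.01 for all genes. Fgfbp1, a secreted carrier that releases FGFs from the matrix, read 252, 216 and 248 in D1 to D3 and 712, 746 and 811 in U1 to U3, and fell by 1.66 ± 0.23 on the log2 scale (SE, limma adjusted p = 0.00359). It was the 1 gene that passed among 10 coreceptors and binding proteins (median 0.37), and no differentiated value came near an undifferentiated one. Of these 10, 6 lay above 0 and 4 below. Flrt3, read on array B, had the largest difference of the 87, 2.99 ± 0.52 (SE), with all differentiated values higher. It did not pass (limma adjusted p = 0.559), but it did with adjustment over both array types.

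Heparan sulfate proteins and enzymes had 21 tested genes (median -0.23), of which 1 rose and 1 fell. Gpc3, the cell surface proteoglycan glypican 3, read 1858, 1304 and 1369 against 581, 597 and 574, and rose by 1.35 ± 0.18 on the log2 scale (SE, limma adjusted p = 0.00332). Hspg2, which encodes the basement membrane proteoglycan perlecan, read 2525, 2639 and 2762 against 4014, 5157 and 4544, and fell by 0.78 ± 0.13 (SE, limma adjusted p = 0.00938). The call on Hspg2 was lost without U2 (limma adjusted p = 0.068) and without U3 (limma adjusted p = 0.0555), and with a floor of 64 (0.0592) or no filter on dim probe sets (0.0529).

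Among 23 adaptors and members of the RAS-ERK, PLC and PI3K cascade (median 0.01) only Gab1, a docking protein of receptor tyrosine kinases, passed. It read 732, 1387 and 1365 in D1 to D3 against 2399, 2218 and 2296, and fell by 1.05 ± 0.23 (SE, limma adjusted p = 0.0359). That call was lost without U1, U2 or U3 in turn (limma adjusted p of 0.0828, 0.111 and 0.124). It was also lost with median centring, adjustment over both array types, no filter or a floor of 64 (limma adjusted p of 0.0996, 0.0725, 0.184 and 0.217). Without an intensity trend in the variance model, only Fgfbp1 of the 4 genes passed, and with the lot as a block none did, though their differences lay between -1.58 and 1.36 with unchanged signs. None of 19 ERK feedback regulators and targets passed (median -0.28), nor did any of 10 other secreted FGF ligands (median -0.10) or of 4 intracellular FGF homologous factors (median 0.13). The lowest and highest differences of the ERK list were -1.30 and 2.09.

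**Figure D4:**
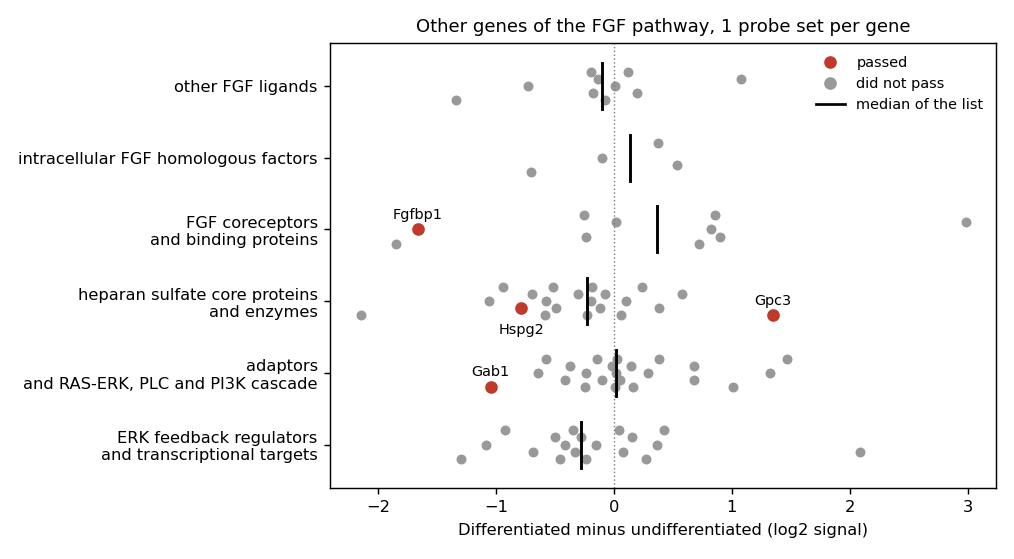
Differentiated minus undifferentiated log2 differences of 87 other FGF pathway genes in 6 lists, 1 point per gene, red and named where the gene passed, with a black bar at the median of each list. Gpc3 (1.35) stands to the right of 0 and Fgfbp1 (-1.66), Hspg2 (-0.78) and Gab1 (-1.05) to the left, and the medians lie between -0.28 and 0.37.

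Markers of other cells also differed between the groups. Of all 16461 genes, each taken by 1 probe set as above, 1.16% passed as lower and 0.923% as higher. Of 15 tested fibroblast markers 7 fell and 0 rose, and the summed array A signal of the 18 listed was 4216 to 6334 in differentiated and 14028 to 15062 in undifferentiated RNAs. Of 15 tested extraembryonic endoderm markers 7 rose and 0 fell, and the sum of the 16 listed was 10246 to 11673 against 6554 to 7769. Of 10 stem cell markers only 1 passed, as lower, but 9 of the 10 lay below 0 (median -0.63). Their sums were 26642 to 50673 against 61739 to 71732, with D1 the lowest. Bright probe sets weigh most in such sums, and Dppa5a alone gave 9203 to 24497 and 33326 to 37827 of the stem cell sums. Of 10 postimplantation epiblast markers, which include Fgf5, 4 rose, and of 9 tested primitive streak markers, which include Fgf8, 2 rose. By its brightest array A probe set, no listed marker found there was at the floor on all 6 arrays. That does not mean that each was detected. Afp, Postn, Pdgfrb, Twist1 and Wnt3 were too dim to be tested, and T had no probe set under that single symbol. The sums were compared between the same groups as Fgf17, Fgfbp1, Hspg2, Gab1 and Gpc3. Anything that separates these groups goes along with genes that passed, so no link can be read from that. Among the differentiated RNAs, D1 had the lowest stem cell sum but the highest fibroblast sum (6334, against 5256 for D2 and 4216 for D3). D1 was also the lowest RNA for Gab1 and Hspg2 and the highest for Gpc3. Hspg2, however, read nearly alike in D1 to D3 (2525, 2639 and 2762). For the Fgf17 probe set that passed the lowest RNA was D3, which had the highest stem cell sum of the differentiated RNAs (50673). For Fgfbp1 the lowest RNA was D2. The part of these markers in those differences was not tested.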

How the data were processed

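Total RNA (6 RNAs) was hybridised to 12 Affymetrix arrays. Per the submitters' processing notes the authors deposited MAS5 signal intensity values, 1 per probe set and array; the sources used here give neither the MAS5 version nor the scaling target nor a genome build. The 2% trimmed mean of each deposited array lay near 1500, which shows common scaling and hides changes in total RNA. Gene names came from the platform annotation, and all 10 member symbols matched the RefSeq table. Each array was rescaled to 500, values under 32 were set to 32, and probe sets with a mean log2 under 6 and controls were left out. Groups were compared with limma 3.58.1 (eBayes with an intensity trend, two-sided) in R 4.3.3, separately per array type, and the fit was tested on simulated data. The number of arrays limits the precision. Members and lists were chosen with earlier results of these data known. All members are named. Of the pathway lists, genes that passed are named, up to 4 per list and direction, and so is Flrt3 for its largest difference. Alternatives covered scaling, floor, filter, variance model, adjustment, replicate block, lot or station, and leaving out each RNA. No detection calls were used.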

Additional observations from a re-analysis of the deposited data

How the results depend on the processing

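The 23 tested member probe sets were refitted under up to 18 alternatives each, which gave 403 differences; 8 probe sets had fewer (15 at the least), because they failed a filter there. Of the 403, 377 kept their direction and side of the threshold, 6 lost the call, 1 gained it and 19 changed sign. Fgf17 stayed below 0 in each (-1.73 to -1.34, limma adjusted p 0.00489 to 0.195) and lost its call with a floor of 64, no filter, no intensity trend, the lot block, or without U2 or U3. Member genes called numbered 0 with a floor of 64, no filter or no trend, and 0 to 1 without each RNA in turn; with the lot block the 1 gene called was Fgf5, not Fgf17. The cause of these changes was not tested, except that a floor of 64 leaves the filter without effect and so tests more probe sets. Array A calls (518) were 307 with median centring, 194 with a floor of 64, 194 with no filter, 97 with no trend, 319 with joint adjustment over both array types, 106 with the lot block and 190 to 497 without each RNA. Array B calls (4) were 2 with median centring, a floor of 16 or robust fitting, 0 with a floor of 64, no trend or the station block, 1 with no filter, 10 with joint adjustment and 0 to 2 without each RNA. Pathway genes called (4) were 1 with no trend, 0 with the lot block and 2 to 5 without each RNA. The lot or station block turned the sign of Fgfr2 1420847_a_at (0.38), 1443211_at (1.71), Fgfr3 1421841_at (0.19), 1425796_a_at (-0.072), Fgfr4 1427845_at (-0.67), Fgf8 1451882_a_at (-0.12), Fgf5 1438883_at (0.35), Fgf3 1441914_x_at (0.18) and Sox2 (0.0096), none of which passed. Median centring turned Fgfr4 1427846_x_at (-0.028) and quantile normalisation Sox2 (0.0029). Without each RNA in turn, signs changed for Fgfr3 1421841_at (-0.80 to 0.19), Fgfr4 1427846_x_at (-0.20 to 0.20), Fgf5 1438883_at (-0.66 to 0.12), Fgfr2 1443211_at (-1.18 to 0.53) and Sox2 (-0.21 to 0.074). Same-numbered RNAs deviated together with r of 0.157, 0.0123 and 0.0725 on array A and 0.183, 0.0966 and 0.118 on array B. For unlike numbers r spanned -0.145 to 0.0896 (array A) or -0.144 to 0.0333 (array B). Same-numbered values thus exceeded all others for array B but not for array A. The main fit did not pair the RNAs by number, and whether equal numbers mark a shared origin was not tested. With the replicate block 724 array A probe sets passed (518 in the main fit) and 1 of array B (4 in the main fit). In that fit 1 member gene (Fgf17) and 4 pathway genes passed.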
